A study of Mus musculus with 4 samples.

Results

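The mitochondrial carrier family Slc25 was described as 46 genes, chosen as the symbols of the array files made of Slc25a and a number, of 37074 gene entries on the array. 1 further symbol of the family is not analysed here. For 43 of these genes, among 24638 entries in all, a probe was kept, meaning that 1 or more arrays had it well above background on 50% or more of its spots. Well above background on all 4 arrays were 41 members, among 20759 entries. Slc25a31, a form of the ADP/ATP carrier known from testis, Slc25a41 and Slc25a54 were not well above background on any array.

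Kidneys of ICR mice, an outbred stock, gave total RNA for 4 Agilent arrays of a single colour, 1 array for each of 4 groups. The groups were vancomycin injected at zeitgeber time 14 (ZT14), saline injected at ZT14, vancomycin injected at ZT2 and saline injected at ZT2, with ZT counted in hours from lights on and each kidney taken 1 day after the injection. Vancomycin is a glycopeptide antibiotic that can injure the kidney, and saline is its vehicle control. The labels give no age, sex, dose or number of mice per sample, and whether the samples are separate animals or pools is not given. A level is the log2 of the processed signal minus the 75th percentile of that array, and a gene is represented by its brightest probe. With 1 array per group a difference at a single injection time is a value without a test, and a size of 2-fold (1 on the log2 scale) was used to count genes. Repeated spots of the same probe on an array had a median SD of 0.043 to 0.050 in log2 signal, which is technical spread only and not spread between animals. Levels here are of whole kidney, where fewer cells of a type and less RNA per cell cannot be told apart.

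Between 60.6% and 64.7% of the 59305 spots of an array were well above background, and 0 spots were saturated. All 13 kidney markers, from the proximal tubule to the podocyte, were well above background on all 4 arrays. Slide and time of injection cannot be told apart, since the ZT14 arrays shared a slide and the ZT2 arrays shared another. The vancomycin arrays held all 10 adrenal markers above background and the saline arrays 5 of 10. The summed adrenal level was 0.50 on the vancomycin array and -0.45 on the saline array at ZT14, and 2.93 on the vancomycin array and -0.55 on the saline array at ZT2. Of 8 erythroid markers 5 were kept, with summed levels of 5.42 on the vancomycin array and 5.12 on the saline array at ZT14, and of 3.48 on the vancomycin array and 5.09 on the saline array at ZT2.

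Carriers of this family are small proteins that nearly all sit in the inner mitochondrial membrane and move nucleotides, phosphate, carboxylates, amino acids and coenzymes between the matrix and the cytosol. ATP export, the malate-aspartate shuttle, ammonia handling and heme synthesis all depend on them. The proximal tubule of the kidney is dense in mitochondria and makes most of its ATP by oxidation.

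Most members differed little between vancomycin and saline kidneys, and few passed 2-fold. The median difference of the 41 members, vancomycin minus saline, was 0.07 on the log2 scale at ZT14, where the median of all genes was 0.01, and 0.07 at ZT2, where it was 0.00. The median size of a member's difference, without its sign, was 0.16 at ZT14 and 0.19 at ZT2, beside 0.17 and 0.19 over all genes. At ZT14 the differences ran from -0.82 for Slc25a26 to 1.33 for Slc25a25, and at ZT2 from -0.63 for Slc25a22 to 1.17 for Slc25a17. Of the 41 members 17, or 41.5%, lay within 1.2-fold of saline at both times, against 46.5% of all genes. These 17 included the abundant carriers Slc25a3, Slc25a4, Slc25a5 and Slc25a11.

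Counted by size, 1 member was at least 2-fold higher with vancomycin at ZT14, Slc25a25, where 1.09% of all genes were, and 0 were 2-fold lower, where 2.22% of all genes were. At ZT2 Slc25a17 and Slc25a27 were at least 2-fold higher, where 1.32% of all genes were, and 0 members were 2-fold lower, where 3% of all genes were. Higher with vancomycin at both times, at any size, were 18 of 41 members (43.9% of them), beside 29.9% of all genes. Lower at both times were 7 members (17.1%), beside 27.3% of all genes. The remaining 16 had opposite signs at the 2 times. Across the 41 members the difference at ZT14 and that at ZT2 had a Pearson r of 0.0987 and a Spearman rho of 0.104, against 0.265 and 0.222 across 20759 genes. These correlations run across genes, which are not independent replicates, and are given as a description.

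A limma model with additive terms for treatment and time of injection was fitted on all 24638 genes, with Benjamini-Hochberg adjustment over all of them. In this fit the p-value asks how far the vancomycin differences at the 2 times lie from 0 given how far they lie from each other, with 1 residual degree of freedom and a prior shared over all genes. By limma 0 members passed at an adjusted p under 0.05, as did 0% of all genes, and the lowest adjusted p among members was 0.55. Without adjustment 3 of 43 members had p under 0.05, all higher with vancomycin, as had 8.55% of all genes in either direction. Of those 2107 genes 790 were higher. The 3 members were Slc25a34, Slc25a25 and Slc25a18, and Slc25a18 was kept only through the vancomycin array at ZT2, the single array where it was well above background.

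**Figure D1:**
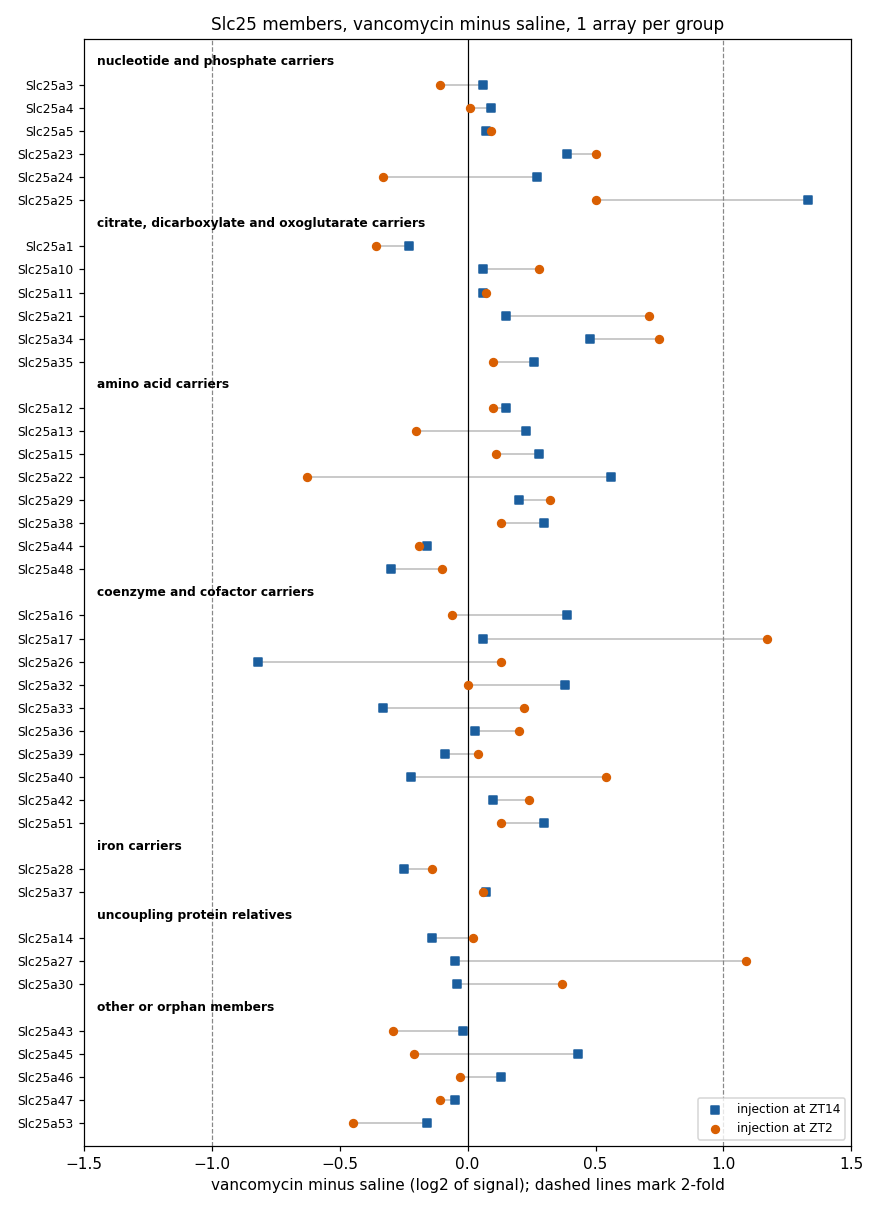
Vancomycin minus saline (log2 of signal) for 40 members well above background on all 4 arrays, grouped by role. Squares are injection at ZT14 and circles injection at ZT2, each the difference of 1 array from 1 array, and dashed lines mark 2-fold. Slc25a25 lies past 2-fold at ZT14, Slc25a17 and Slc25a27 at ZT2, and the carriers Slc25a4, Slc25a5 and Slc25a37 lie close to 0 at both times.

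The nucleotide and phosphate carriers included Slc25a25. On the brightest probes it had the largest difference between vancomycin and saline among the members well above background on all 4 arrays. Slc25a25 encodes a calcium-regulated carrier that exchanges ATP-Mg for phosphate and so sets the adenine nucleotide pool of the matrix. Its level was 3.65 in vancomycin and 2.32 in saline kidney at ZT14, and 3.55 in vancomycin and 3.04 in saline kidney at ZT2. The vancomycin arrays were alike and above both saline arrays, and the lowest value was that of saline at ZT14. The difference was 1.33 (2.52-fold) at ZT14 and 0.50 (1.42-fold) at ZT2. The limma estimate over both times was 0.92 ± 0.28 (SE, 2 arrays per treatment), which did not pass (adjusted p = 0.58). All 4 probes of Slc25a25 were higher with vancomycin at both times, by 1.18 to 1.39 at ZT14 and by 0.33 to 0.53 at ZT2.

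The probe of Slc25a25 that starts farthest upstream, at base 1061 of its transcript, is shown because it lies apart from the other 3 and gave the same picture. It spans 330 bases of chromosome 2 in mm9, the build of the array files, at chr2:32272932-32273261, longer than its 60 bases. Whether it crosses an intron was not looked up. The brightest probe lies at chr2:32270275-32270334. On the upstream probe the level was -2.53 in vancomycin and -3.81 in saline kidney at ZT14, and -2.36 in vancomycin and -2.70 in saline kidney at ZT2.

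Slc25a25 probe: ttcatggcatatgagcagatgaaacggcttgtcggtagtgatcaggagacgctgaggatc

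RefSeq lists 3 starts for Slc25a25, all on the minus strand of chromosome 2 (GRCm38.p6), and the 250 bases before each start are shown since all 4 probes were higher with vancomycin. Capitals mark the letters TGACGTCA (the cyclic AMP response element, CRE) and CCAAT or its reverse ATTGG. The motifs CACGTG (E-box) and TTATGTAA or its reverse TTACATAA (D-box) were also searched, on both strands.

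Slc25a25 start 1, chr2:32451471-32451720: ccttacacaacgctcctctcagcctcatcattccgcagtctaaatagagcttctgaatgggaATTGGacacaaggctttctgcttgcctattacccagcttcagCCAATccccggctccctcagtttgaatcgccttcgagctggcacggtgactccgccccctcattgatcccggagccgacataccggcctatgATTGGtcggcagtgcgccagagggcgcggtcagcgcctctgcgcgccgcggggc

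Slc25a25 start 2, chr2:32431152-32431401: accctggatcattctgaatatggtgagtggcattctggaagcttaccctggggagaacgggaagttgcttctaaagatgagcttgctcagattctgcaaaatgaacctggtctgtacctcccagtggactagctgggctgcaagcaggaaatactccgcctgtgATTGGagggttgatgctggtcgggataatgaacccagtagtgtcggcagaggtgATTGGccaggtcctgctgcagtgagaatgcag

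Slc25a25 start 3, chr2:32424067-32424316: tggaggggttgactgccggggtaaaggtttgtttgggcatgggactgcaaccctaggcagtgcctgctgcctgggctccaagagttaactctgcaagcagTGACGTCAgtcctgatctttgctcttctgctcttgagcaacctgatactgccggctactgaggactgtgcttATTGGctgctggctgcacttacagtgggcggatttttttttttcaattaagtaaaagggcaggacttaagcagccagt

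In start 3 the CRE began at position -150 and an ATTGG at position -78, counted from the start, with no overlap. Start 1 held 3 CCAAT or ATTGG matches and start 2 held 2. Of 46 members 35 had an entry in the promoter table, with 45 windows in all. A CRE was present in 2 of the 45 windows (4.44%), those of Slc25a25 and Slc25a36, and in 1.55% of all 32851 windows. An E-box was present in 8 windows (17.8%), beside 6.02% of all windows, and CCAAT or ATTGG in 21 (46.7%), beside 33.8%. A D-box was in 0 of the 45 windows and in 0.819% of all. A match describes the letters and not a site in use, and the array gives no measure of which start was used.

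Of the other ATP-Mg/phosphate carriers, Slc25a23 had levels of -1.04 in vancomycin and -1.43 in saline kidney at ZT14, and of -0.73 in vancomycin and -1.23 in saline kidney at ZT2. The vancomycin array was the higher at each time, by 0.39 and 0.50. Its other probes did not follow, with -0.28 and -0.04 at ZT14 and 0.08 and 0.12 at ZT2. Slc25a24 went opposite ways, with -2.35 in vancomycin and -2.62 in saline kidney at ZT14, and -1.94 in vancomycin and -1.61 in saline kidney at ZT2.

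The ADP/ATP carriers, which exchange matrix ATP for cytosolic ADP, were nearly level. Slc25a4 had 6.47 in vancomycin and 6.38 in saline kidney at ZT14, and 6.25 on both ZT2 arrays, so that it differed by 0.09 and 0.01. Slc25a5 had 5.86 in vancomycin and 5.79 in saline kidney at ZT14, and 5.95 in vancomycin and 5.85 in saline kidney at ZT2. Slc25a3, the carrier that brings in the phosphate for ATP synthesis, had 5.6 in vancomycin and 5.55 in saline kidney at ZT14, and 5.47 in vancomycin and 5.58 in saline kidney at ZT2. In the 6 measured genes of this role 4 were higher with vancomycin at both times and 0 lower at both, with medians of 0.18 at ZT14 and 0.05 at ZT2.

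Among the 6 carriers of citrate, dicarboxylates and oxoglutarate, 5 were higher with vancomycin at both times and 1, Slc25a1, lower at both. Slc25a34, an orphan member grouped by sequence with the yeast oxaloacetate carrier, had 3.22 in vancomycin and 2.74 in saline kidney at ZT14, and 3.18 in vancomycin and 2.43 in saline kidney at ZT2. Both vancomycin values lay above both saline values. The difference was 0.48 (1.39-fold) at ZT14 and 0.75 (1.68-fold) at ZT2, and by limma 0.61 ± 0.16 (SE, adjusted p = 0.55). A second probe of Slc25a34, near the start of the transcript, differed by 0.17 and 0.03. Slc25a35, a close relative of Slc25a34, differed by 0.26 at ZT14 and 0.10 at ZT2, and its 3 probes were all higher, by up to 0.79 at ZT14 and 0.53 at ZT2.

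Slc25a1 exports citrate, the source of cytosolic acetyl-CoA for lipid synthesis. It had 3.04 in vancomycin and 3.26 in saline kidney at ZT14, and 3.51 in vancomycin and 3.88 in saline kidney at ZT2, and its second probe was lower too, with -0.11 at ZT14 and -0.46 at ZT2. Slc25a10, the dicarboxylate carrier that exchanges malate or succinate for phosphate, had 1.18 in vancomycin and 1.12 in saline kidney at ZT14, and 0.67 in vancomycin and 0.40 in saline kidney at ZT2. Slc25a11 carries the malate arm of the malate-aspartate shuttle and hardly differed, with 5.39 in vancomycin and 5.33 in saline kidney at ZT14, and 5.04 in vancomycin and 4.97 in saline kidney at ZT2. Slc25a21, which carries oxodicarboxylates, differed by 0.15 at ZT14 and 0.71 at ZT2.

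All 10 amino acid carriers had a kept probe and 8 were well above background on all 4 arrays, of which 4 were higher in vancomycin kidneys and 2 lower at both times. Slc25a12 and Slc25a13 are the aspartate/glutamate carriers, the irreversible step of the malate-aspartate shuttle. Slc25a12 had 2.68 in vancomycin and 2.54 in saline kidney at ZT14, and 2.65 in vancomycin and 2.55 in saline kidney at ZT2. Slc25a13 had 3.65 in vancomycin and 3.42 in saline kidney at ZT14, and 2.91 in vancomycin and 3.11 in saline kidney at ZT2, a difference of 0.23 at ZT14 and of -0.20 at ZT2. Both probes of Slc25a13 had these signs.

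Slc25a22, a glutamate carrier, had the widest contrast between the times. Its level was -0.39 in vancomycin and -0.96 in saline kidney at ZT14, and 0.13 in vancomycin and 0.76 in saline kidney at ZT2. The difference was 0.56 at ZT14 and -0.63 at ZT2, so on this brightest probe the vancomycin arrays lay between the saline arrays. All 3 probes of Slc25a22 had these signs, at 0.12 to 0.56 at ZT14 and -0.96 to -0.50 at ZT2. On the other probes the vancomycin array at ZT2 was instead the lowest of the 4 arrays. Slc25a18, the other glutamate carrier, was well above background only on the vancomycin array at ZT2, where it was at least 1.62-fold higher than in saline. In such a bound the bright array is set against the dim array, at the higher of the dim probe's own signal and the lowest signal well above background there.

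Slc25a15, the ornithine carrier of the urea cycle, had -0.59 in vancomycin and -0.87 in saline kidney at ZT14, and -0.01 in vancomycin and -0.12 in saline kidney at ZT2. Its relative Slc25a2 was well above background only on the vancomycin array at ZT2, at least 1.48-fold higher than in saline. Slc25a29, which carries basic amino acids, had -0.55 in vancomycin and -0.75 in saline kidney at ZT14, and -0.66 in vancomycin and -0.98 in saline kidney at ZT2. Slc25a44, a carrier of branched-chain amino acids, had -0.21 in vancomycin and -0.05 in saline kidney at ZT14, and -1.10 in vancomycin and -0.92 in saline kidney at ZT2. Slc25a29 was thus the higher with vancomycin at each time. Slc25a44 was the lower on this probe, but its second probe differed by -0.10 at ZT14 and 0.35 at ZT2, and the mean over both probes at ZT2 was 0.08. Slc25a48, known as a choline carrier, was also lower at both times on both of its probes, with -0.30 and -0.55 at ZT14 and -0.10 and -0.26 at ZT2.

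**Figure D2:**
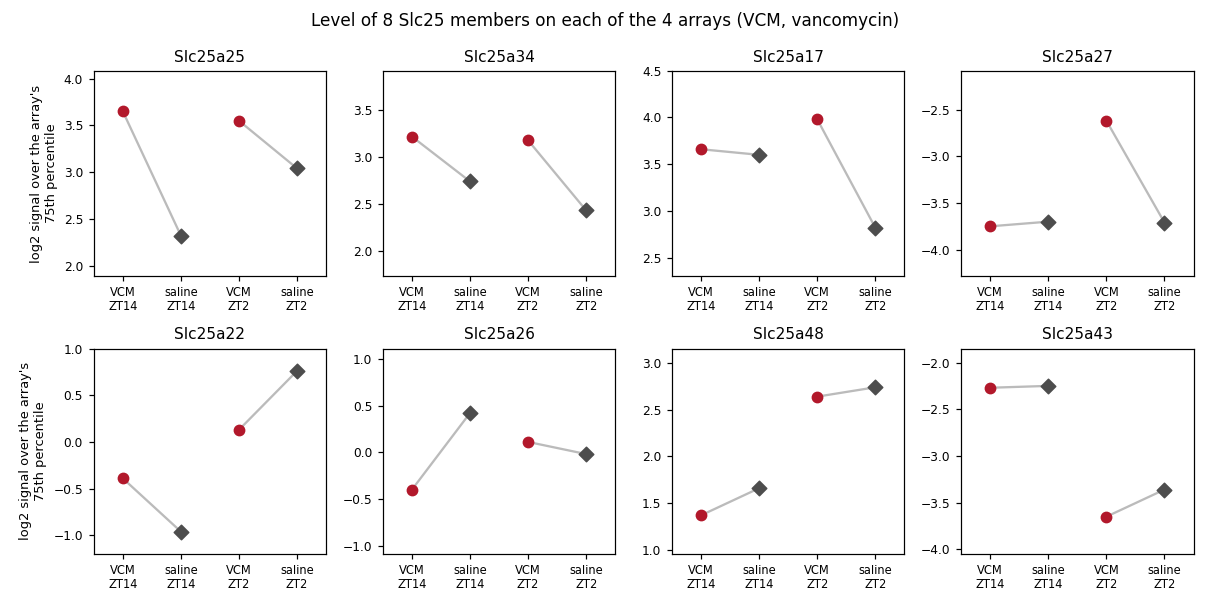
Level (log2 signal over the array's 75th percentile) of 8 members on each of the 4 arrays, 1 point per array, with vancomycin (VCM) as circles and saline as diamonds. Every panel spans 2.2 log2 units around its own centre, since levels of different probes cannot be compared. Slc25a25 and Slc25a34 were higher on both vancomycin arrays, 1 array stood apart for Slc25a17 and for Slc25a27, and Slc25a48 and Slc25a43 split by injection time.

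The 11 measured coenzyme and cofactor carriers included 4 that were higher with vancomycin at both times and 0 that were lower at both, and 7 had opposite signs. Slc25a17, a carrier of the peroxisome that takes up coenzyme A, FAD and NAD, had 3.66 in vancomycin and 3.60 in saline kidney at ZT14, and 3.98 in vancomycin and 2.82 in saline kidney at ZT2. The saline array at ZT2 stood low and the other 3 lay within 0.39 of each other. The difference was 0.06 at ZT14 and 1.17 (2.24-fold) at ZT2, and by limma 0.62 ± 0.35 (SE, adjusted p = 0.71). The member has 1 probe, at chr15:81149365-81149424 in mm9, so no second probe bears on this value. The sideroflexin Sfxn4, which is no Slc25 gene, also had its lowest level in saline at ZT2, with -0.42 in vancomycin and -0.18 in saline kidney at ZT14, and 0.03 in vancomycin and -1.59 in saline kidney at ZT2.

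Slc25a26 brings S-adenosylmethionine, the methyl donor, into the matrix. Its level was -0.40 in vancomycin and 0.42 in saline kidney at ZT14, and 0.11 in vancomycin and -0.02 in saline kidney at ZT2. All 3 probes were lower with vancomycin at ZT14, at -0.82 to -0.19, and a little higher at ZT2, at 0.07 to 0.13. Slc25a51, the NAD carrier, had 5.49 in vancomycin and 5.19 in saline kidney at ZT14, and 5.49 in vancomycin and 5.36 in saline kidney at ZT2, and its other probe was higher by 0.65 and 0.41. Slc25a42, which exchanges coenzyme A for nucleotides, was higher on all 3 probes at both times, by 0.10 to 0.40 at ZT14 and 0.24 to 0.39 at ZT2.

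Slc25a33 and Slc25a40 had opposite signs at the 2 times. Slc25a33, a pyrimidine nucleotide carrier, differed by -0.33 at ZT14 and 0.22 at ZT2. Slc25a40, which takes part in glutathione uptake, differed by -0.22 at ZT14 and 0.54 at ZT2, and its second probe by -0.01 and -0.13. Its partner in the same role, Slc25a39, differed by -0.09 and 0.04. The folate and FAD carrier Slc25a32 differed by 0.38 and 0.00, and its second probe by -0.26 and 0.60. Slc25a16 differed by 0.39 and -0.06, and its second probe by -0.16 and -0.45. Slc25a36, another pyrimidine nucleotide carrier, differed by 0.03 and 0.20, with its probes at -0.32 to 0.08 and 0.00 to 0.46.

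The iron carriers Slc25a28 and Slc25a37, or mitoferrins, feed iron to heme and iron-sulfur cluster synthesis. Slc25a37 had 2.21 in vancomycin and 2.14 in saline kidney at ZT14, and 2.09 in vancomycin and 2.03 in saline kidney at ZT2. Slc25a28 had 2.18 in vancomycin and 2.43 in saline kidney at ZT14, and 2.13 in vancomycin and 2.27 in saline kidney at ZT2. Slc25a37 is abundant in red cell precursors, and the erythroid genes Hba-a1 and Alas2 differed by -2.09 and -2.45 at ZT2, whereas Klf1 differed by 2.78. The part of red cells in the values of Slc25a37, and of Slc25a38, a glycine carrier needed for heme synthesis that differed by 0.30 at ZT14 and 0.13 at ZT2, was not tested.

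Of the 3 relatives of the uncoupling proteins, 0 had the same sign at both times. Slc25a27 is known mainly from brain. Its level was -3.75 in vancomycin and -3.70 in saline kidney at ZT14, and -2.62 in vancomycin and -3.71 in saline kidney at ZT2. The vancomycin array at ZT2 stood high and the other 3 were within 0.05 of each other. The difference at ZT2 was 1.09 (2.13-fold), and it was 0.88 with 16 added to each signal and 0.59 with normexp background correction, on a probe whose processed signal was 79.6 in vancomycin and 41.7 in saline kidney at ZT2. Of 10 adrenal markers 9 were also highest on that array. Their median difference, with dim probes at their bound, was 1.18 at ZT14 and 3.04 at ZT2, and their part in the value of Slc25a27 was not tested. Slc25a30, known as a kidney mitochondrial carrier, differed by -0.04 at ZT14 and 0.37 at ZT2, and Slc25a14 by -0.14 and 0.02.

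The 5 other or orphan members held none that was higher at both times and 3 that were lower at both. These 3 were Slc25a43, Slc25a47 and Slc25a53, all on weak probes, and Slc25a43 differed by only -0.02 at ZT14. Slc25a45 had 2.78 in vancomycin and 2.35 in saline kidney at ZT14, and 2.19 in vancomycin and 2.41 in saline kidney at ZT2. Both probes of Slc25a45 gave this pattern, with 0.43 and 0.47 at ZT14 and -0.21 and -0.22 at ZT2. Slc25a53 had -3.88 in vancomycin and -3.72 in saline kidney at ZT14, and -4.86 in vancomycin and -4.42 in saline kidney at ZT2. A second probe of Slc25a53 was well above background on both saline arrays and on neither vancomycin array, so that it was at least 1.24-fold lower with vancomycin at ZT14 and at least 1.1-fold lower at ZT2. The brightest probe was itself weak, with processed signals of 16.9 to 51.5, and its difference became -0.01 at ZT14 and -0.02 at ZT2 with normexp background correction. Slc25a43 had -2.27 in vancomycin and -2.25 in saline kidney at ZT14, and -3.65 in vancomycin and -3.36 in saline kidney at ZT2. Slc25a47, known from liver, differed by -0.05 and -0.11, and Slc25a46, a protein of the outer membrane, by 0.13 and -0.03.

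Members with several probes allowed a check inside each array. There were 103 probes for the 46 members, each spotted once per array, and 27 members had at least 2 probes well above background on all 4 arrays. All probes of a member had the same sign in 23 of 27 members at ZT14 (85.2%) and in 18 of 27 at ZT2 (66.7%). Over all 7072 genes with such probes the shares were 57.0% and 59.1%. All probes had the same sign at both times in 8 members (29.6%), beside 24.1% of all such genes. These were Slc25a21, Slc25a25, Slc25a34, Slc25a35, Slc25a42 and Slc25a51, higher with vancomycin, and Slc25a1 and Slc25a48, lower with it. The median SD between probes of a member was 0.12 at ZT14 and 0.17 at ZT2. The median size of a member's difference, over all 41 members on their brightest probe, was 0.16 at ZT14 and 0.19 at ZT2. That is another measure on another set of members, so the 2 values cannot be ranked against each other.

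**Figure D3:**
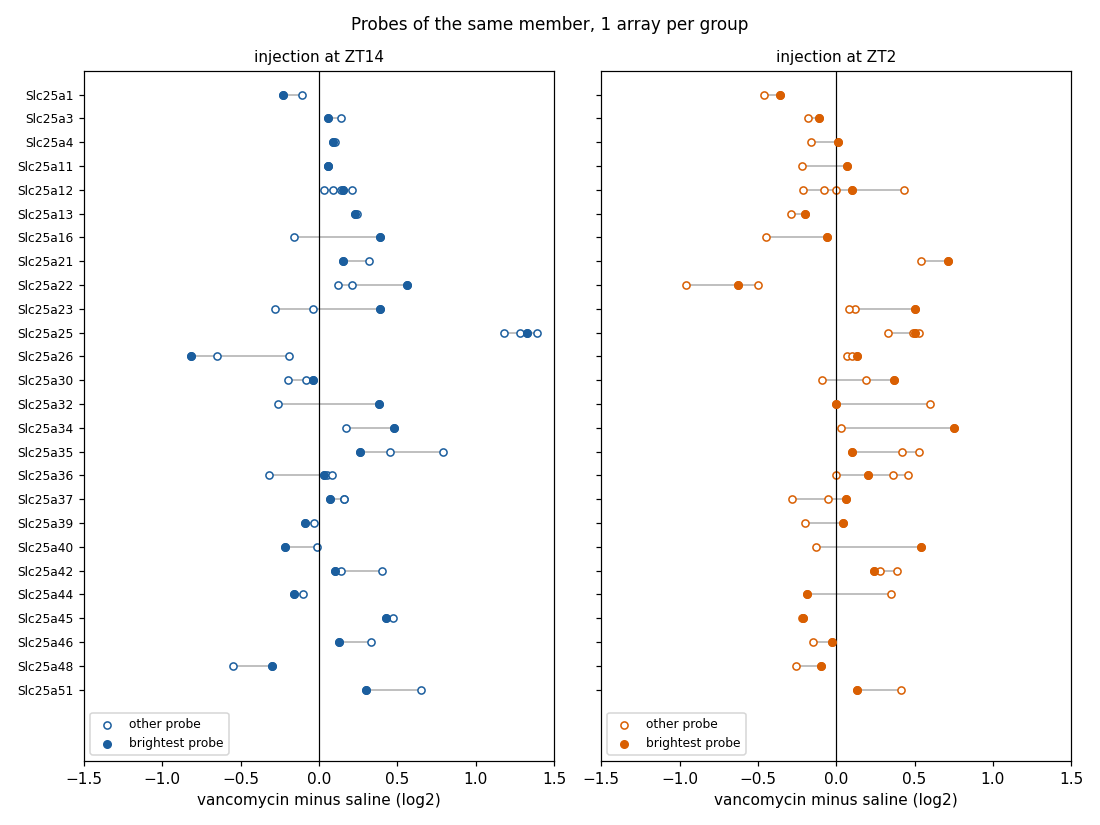
Vancomycin minus saline (log2) of every probe well above background on all 4 arrays, for 26 members with at least 2 of them, with injection at ZT14 on the left and at ZT2 on the right. Filled points are the brightest probe, open points the other probes, and grey lines their range. The 4 probes of Slc25a25 lie close together at both times, while those of Slc25a23 and Slc25a32 fall on both sides of 0 at ZT14.

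Injection time was compared in the same arrays, which are also those of the vancomycin differences, so these values are not independent of the ones above. With each kidney taken 1 day after its injection, time of injection, time of day at collection and slide cannot be told apart. The median of the members, ZT14 minus ZT2, was 0.03 in vancomycin and 0.11 in saline, beside 0.03 and 0.02 over all genes, and over all 43 kept members it was 0.02 and 0.11, or -0.09 and 0.00 with centring on the median. In vancomycin 1 member was at least 2-fold higher at ZT14, Slc25a43, where 8.32% of all genes were, and 2 were 2-fold lower, Slc25a27 and Slc25a48, where 2.75% were. In saline 1 member was 2-fold higher, Slc25a43, where 7.02% of all genes were, and 3 were 2-fold lower, Slc25a22, Slc25a24 and Slc25a48, where 2.79% were. The brightest probe of Slc25a22 differed by -1.71 in saline and -0.52 in vancomycin. Its other probes differed by only -0.33 and -0.84 in saline, and by 0.38 and 0.23 in vancomycin, the other way. Higher at ZT14 in both treatments were 16 of 41 members (39%), beside 39.4% of all genes, and lower in both were 13 (31.7%), beside 35.3%. These shares lie near those of all genes.

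By limma 0 members passed for injection time at an adjusted p under 0.05, as did 0% of all genes. At an unadjusted p under 0.05 there were 10 members, 6 of them higher at ZT14, where 27.2% of all genes passed. Of these 10, Slc25a2 was well above background on the vancomycin array at ZT2 alone and was kept only through it. The lowest adjusted p among members was 0.091, for Slc25a43 and Slc25a48. With normexp background correction 8 of 43 members passed, as did 2841 of all 24638 genes. With a robust prior that follows intensity 8 members passed, as did 3396 genes in all. Slc25a48 had 1.37 at ZT14 and 2.64 at ZT2 in vancomycin, and 1.66 at ZT14 and 2.74 at ZT2 in saline. Both ZT14 arrays were below both ZT2 arrays. The limma estimate was -1.18 ± 0.15 (SE, adjusted p = 0.091), and its second probe differed by -0.82 in vancomycin and -0.52 in saline.

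Slc25a43 was higher at ZT14, by 1.38 in vancomycin and 1.11 in saline, with a limma estimate of 1.24 ± 0.16 (SE, adjusted p = 0.091). On this probe, with processed signals of 39.2 to 142, the estimate was 0.97 with 16 added to each signal and 0.69 with normexp background correction. Its other probe was not well above background. Slc25a44 was higher at ZT14 by 0.89 in vancomycin and 0.87 in saline, and its second probe by 0.21 and 0.65. By contrast, 1 probe of Slc25a46 was higher at ZT14 by 0.95 in vancomycin and 0.80 in saline, and the other differed by -0.24 and -0.72. In only 6 of the 27 members with several probes did all probes have the same sign for both time differences, and these were Slc25a4, Slc25a11, Slc25a34, Slc25a42, Slc25a44 and Slc25a48.

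**Figure D4:**
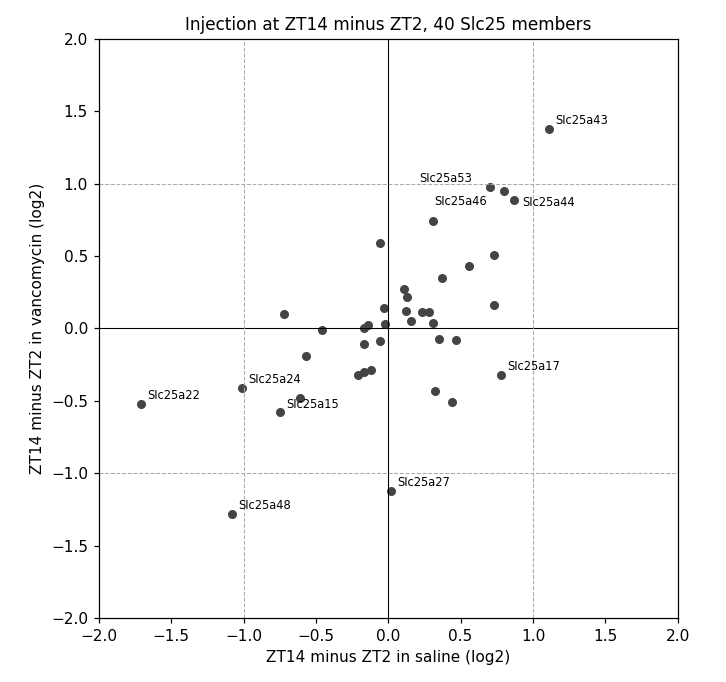
Injection at ZT14 minus injection at ZT2 for 40 members, in vancomycin (vertical axis) and in saline (horizontal axis), both in log2, 1 point per member. Dashed lines mark 2-fold, and members at 0.75 or more on either axis are named. On the brightest probes, Slc25a43 and Slc25a48 lie past 2-fold in both treatments, and Slc25a22 lies farther from 0 in saline than in vancomycin.

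Genes that work beside the carriers were described in the same way. Of 15 genes that import carriers from the cytosol 14 were kept, and vancomycin kidneys were higher for 4 and lower for 2 at both times, with medians of 0.14 at ZT14 and -0.09 at ZT2. Agk, a subunit of the inner membrane translocase for carriers, had the largest difference of these, 0.20 at ZT14 and -0.48 at ZT2. Of 26 partner enzymes 24 were kept, and 12 were higher and 2 lower at both times, with medians of 0.05 and 0.11. Got1, the cytosolic aspartate aminotransferase of the malate-aspartate shuttle, differed by 0.50 at ZT14 and 0.18 at ZT2.

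All 11 regulators of mitochondrial biogenesis were kept, 5 higher and 0 lower at both times, with medians of 0.10 and 0.11. The coactivator Ppargc1a differed by 0.10 at ZT14 and 0.08 at ZT2. Of 18 relatives and other inner membrane carriers, 17 were well above background on all 4 arrays, 8 higher and 2 lower at both times. Ucp1, the uncoupling protein of brown fat, was well above background only on the vancomycin array at ZT2, where its log2 level was at least 4.01 above that of saline. The 9 fat markers, Ucp1 included, had summed levels of 4.99 on the vancomycin array and 4.35 on the saline array at ZT14, and of 4.96 on the vancomycin array and 5.29 on the saline array at ZT2. At ZT2 the other 8 went both ways, 4 higher and 4 lower with vancomycin. The brown fat genes Cidea and Cox8b differed by 1.58 and 1.83, whereas Adipoq, Plin1 and Cidec differed by -1.64, -1.23 and -1.74. Their part in the value of Ucp1 was not tested. Fat markers also differed by injection time, which the sums hide. Cidec, Cidea and Cox8b differed, ZT14 minus ZT2, by -3.98, -4.36 and -2.99 in vancomycin. In saline they differed by -5.17, -3.27 and -1.97. Adipoq, Plin1 and Fabp4 were lower at ZT14 too, whereas Lep was higher in both treatments and Cox7a1 went both ways. The part of fat in the members' time differences was not tested. By limma 0 genes of the lists of import, partner enzymes, regulators and relatives passed for vancomycin at an adjusted p under 0.05. At an unadjusted p under 0.05, 0 genes of those lists passed. The fat markers were outside this count, and of them Plin1 (lower) and Cox8b (higher) were under 0.05 without adjustment. Neither passed with adjustment, and Plin1 was not well above background on the ZT14 arrays.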

How the data were processed

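Total RNA was labelled with Cy3 and hybridized to 4 Agilent arrays. Per the file headers the images were read by Feature Extraction 10.7.1.1, while the submitters' processing notes name 9.5.1.1. The processed signal, an intensity with background subtracted per the file headers, was deposited without scaling between arrays. The authors' deposited table of intensity values was used as an alternative. Spots flagged as not uniform or outliers were left out. The 75th percentile of each array was subtracted from its log2 signals, and each gene took its brightest kept probe. Limma 3.58.1 in R 4.3.3 fitted treatment and injection time on all genes (prior SD 0.168 with 1.86 prior degrees of freedom). It was run on simulated data whose effects were larger than those of the members and equal at both times. That run does not show how the fit performs on effects of the members' size. Arrays give no read depth, and 1 array per group limits the precision. Of 43 measured members 37 matched a RefSeq accession (GRCm38.p6), each with the same symbol. The members, lists and the rule for naming (members past 2-fold in any difference, the 4 highest and 4 lowest with the same sign at both times, the 3 largest contrasts between times each way, and members chosen by role) were chosen with earlier results of these data known. Other members are named after their values were seen. 1 member counted above is not reported singly here and is left out of the plots. Alternatives covered centring, quantile normalization, background correction, a pseudocount, the filter, the probe rule and the prior.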

Additional observations from a re-analysis of the deposited data

Results flagged for a closer look

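In 6 members the vancomycin difference had opposite signs at the 2 injection times, with each difference beyond 0.19 on the log2 scale, which is 3 times the spot-to-spot SD of a difference. These were 14.6% of the 41 members, beside 9.43% of all genes under the same rule. With 1 array per group the contrast between times was not tested. The effect at ZT14 minus that at ZT2 was 1.19 for Slc25a22, 0.65 for Slc25a45, 0.60 for Slc25a24 and 0.43 for Slc25a13, all higher with vancomycin at ZT14 and lower at ZT2. It was -0.75 for Slc25a40 and -0.55 for Slc25a33, both lower with vancomycin at ZT14 and higher at ZT2. All probes gave these signs in Slc25a13, Slc25a22 and Slc25a45, whereas the other kept probes of Slc25a40 did not.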

How the results depend on the processing

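With 1 array per group no array could be left out. The labels carry no replicate numbers, and the term for injection time already sets the arrays of a slide against each other. Over all alternatives 0 members passed for vancomycin. For injection time 8 of 43 members passed with normexp, beside 2841 of all 24638 genes. With an intensity trend and robust prior 8 passed, beside 3396 genes in all. With a pseudocount of 16 it was 4 of 43 members, beside 1767 of 24638 genes. With the filter set to all 4 arrays it was 4 of 41 members, beside 1636 of 20770 genes. Slc25a43, Slc25a44, Slc25a46 and Slc25a48 passed in all 4 of these settings. Without a term for injection time that comparison has no value. Members past 2-fold numbered 2 at ZT14 and 3 at ZT2 with the mean over probes. At each time this added Slc25a53, through a probe that was not well above background on either vancomycin array. At ZT2 the members past 2-fold numbered 1 with normexp and 1 with the pseudocount, each without Slc25a27, and 4 with no filter. The member median, ZT14 minus ZT2, over all 43 kept members was 0.02 in vancomycin and 0.11 in saline. It became -0.09 in vancomycin and 0.00 in saline with median centring, which lowered time differences of all genes by 0.11, and -0.06 and -0.07 with quantile normalization or the authors' values. In saline it was 0.02 with normexp, -0.01 with the pseudocount, 0.06 with no filter and -0.03 with the mean over probes. The cause of the other changes was not tested. Of 416 alternative values of the 26 named members, 9 turned sign, from main values of at most 0.19 in size. They belong to Slc25a4, Slc25a11, Slc25a12, Slc25a37 and Slc25a44 at ZT2, and to Slc25a27 and Slc25a43 at ZT14, and the farthest went to -0.20 (Slc25a12, mean over probes). In these settings 14 to 21 members were higher at both times and 6 to 8 lower, and the members' median of vancomycin minus saline was 0.07 to 0.10 at ZT14 and 0.07 to 0.13 at ZT2. The median of all genes moved as well. With no filter it was 0.09 at ZT14 and 0.11 at ZT2, where the members had 0.08 and 0.10. In the other settings the members' median was the higher. Weak signals over background limit Slc25a2, Slc25a18, Slc25a27, Slc25a43, Slc25a47 and Slc25a53.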
